A study of Mus musculus with 6 samples.

Results

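The genes described here are 9 genes for the machinery that joins, divides and removes mitochondria: *Mfn1*, *Mfn2*, *Opa1*, *Oma1*, *Dnm1l*, *Fis1*, *Mff*, *Pink1* and *Fundc1*. They were chosen by name, each had 1 row in the table of every mouse, and they are 9 of 23997 gene symbols. RNAseq was performed on gastrocnemius muscle, the large muscle of the calf, from 6 untreated mice at 21 days of age, with 1 library per mouse. The HrasG12V group held mice 2276, 2278 and 2279 (Caggs-Cre+/HrasG12V/+) and the WT group held their littermates 2277, 2280 and 2281 (Caggs-Cre-/HrasflG12V/+), so n = 3 mice per genotype. HrasG12V is the activating glycine to valine change of a Costello syndrome model, heterozygous in these mice, and the comparison asks which transcripts differ in muscle that carries it. The WT mice were not free of the targeted allele. They carried the floxed allele in its unrecombined form and no Cre, whereas the HrasG12V mice also carried the Cre transgene, which the CAG promoter drives in most tissues from early development, so the genotype and the presence of Cre cannot be told apart. All mice were bred on a mixed background of SWR/J, 129S1/SvImJ and C57BL/6J.

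Mitochondria form a network that is remodelled by fusion and fission. Mitofusins tether and join the outer membranes, OPA1 joins the inner membranes and holds the cristae in shape, and the GTPase DRP1, encoded by *Dnm1l*, is brought by adaptor proteins such as MFF to the sites where a mitochondrion is divided. In muscle fibers the network runs between and under the myofibrils, and damaged pieces are removed by mitophagy, either through the kinase PINK1 or through receptors in the outer membrane such as FUNDC1.

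The deposited values were FPKM, which count the fragments of a gene relative to its transcript length and to the size of the library, so levels of genes of different length can be set side by side in a library whose values do not move with length. Read counts were not used here, and the precision of a value is known only from the spread between mice. Each fold change below is a difference of log2(FPKM + 0.1) between HrasG12V and WT, fitted with limma over the 13359 genes with a mean of at least 0.5 FPKM. All 9 genes passed this limit. P-values measure the spread between mice and were adjusted over all 13359 genes by the Benjamini-Hochberg method. In bulk muscle RNA, fewer cells of a type and less RNA per cell cannot be told apart.

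The HrasG12V libraries stood apart in 2 ways that touch the values below. Mouse 2276 had an FPKM sum of 814013 against 413020 to 547122 in the other 5 mice, and its values moved with transcript length. For genes with a longest transcript of 500 to 1000 bases the median difference from WT there was 0.90 on the log2 scale, and for genes above 6000 bases it was -0.57, whereas these medians stayed between -0.21 and 0.01 in mice 2278 and 2279. In mice 2278 and 2279 all 12 B and T cell markers were summed to 115 and 109 FPKM, against 1.54 to 2.06 in WT mice and 2.58 in mouse 2276. The adipocyte list (10 markers) was summed to 1047 and 923 FPKM there, against 409 to 740 in WT mice and 838 in mouse 2276. Most of this sum was *Fabp4*, at 713 to 769 FPKM in HrasG12V and 395 to 678 in WT mice. The list's median difference from WT was 2.21 and 1.98 on the log2 scale in mice 2278 and 2279. It was 0.63 in mouse 2276 and -1.47 to 0.74 in the WT mice. Over all 6 mice the list's median log2 fold change was 1.37. The 9 red blood cell markers measured were summed to 607 to 1980 FPKM in HrasG12V against 660 to 766 in WT mice. The slow fiber markers summed to 1040 FPKM in WT mouse 2281, the lowest of the 6, against 1736 to 6949 in the other mice, and the fast fiber markers to 42521 to 111565 FPKM in HrasG12V and 54501 to 75870 in WT mice. *Ttn*, *Neb*, *Des* and *Ryr1* marked all 6 libraries as muscle. The median log2 fold change of the 9 skeletal muscle markers tested was -0.40, and 2 of them were lower with an unadjusted limma p below 0.05, *Neb* at -0.59 and *Cacna1s* at -0.64 (unadjusted limma p of 0.0434 and 0.0379). *Acta1*, *Myh4* and *Atp2a1* were listed at 0 in all 6 mice and *Ckm* in 5, and such zeros can be failed estimates. Of the fast fiber markers, 3 were at 0 in mouse 2276 and in WT mice 2277 and 2280. In mice 2278 and 2279 and WT mouse 2281 it was 2, so the fast fiber sums do not cover the same genes. *Hras* was at 16.0 to 58.8 FPKM in HrasG12V and 36.0 to 51.8 in WT mice, and both alleles add to this value.

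Of the 9 genes, 1 was lower with an unadjusted limma p below 0.05, *Opa1*, and 0 were higher. Over all genes tested 4.99% were lower and 5.18% were higher at this limit, so 1 of 9 is near the background and is not a result about the group. With a limma adjusted p below 0.05 there were 0 of 9, where 0.0599% of all genes passed. The fitted log2 fold change was below 0 for 7 genes, where it was for 7129 of all 13359 genes tested, and above 0 for *Fis1* and *Pink1*. The median was -0.31 over the 9 genes and -0.03 over all genes tested. Without mouse 2276 these medians were -0.52 and -0.07, and with any 1 mouse left out the median of the 9 genes was between -0.52 and -0.23. In WT muscle *Pink1* was the most abundant (205 FPKM), followed by *Mfn2* (166), *Fis1* (88.8), *Mff* (69.5), *Mfn1* (59.4), *Opa1* (36.7), *Dnm1l* (34.3), *Fundc1* (20.8) and *Oma1* (17.8). The WT values of *Opa1* and *Dnm1l* overlapped, as did those of *Fundc1* and *Oma1*, while every other pair of neighbours in this order was separate in the 3 WT mice. In HrasG12V muscle 7 of the 8 pairs of neighbours by mean overlapped, *Opa1* and *Fundc1* being the exception, so no order of the levels is drawn there. In mouse 2276, whose values moved with transcript length, *Fis1* (193 FPKM) stood above *Mfn2* (176) and *Oma1* (25.3) above *Opa1* (23.4).

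The spread over mice was compared within each genotype. The coefficient of variation over 3 mice was 4.61% to 19.0% in WT and 6.34% to 57.6% in HrasG12V, and it was larger in HrasG12V for 7 of the 9 genes, the exceptions being *Opa1* and *Fundc1*. Of the genes tested for which it could be computed in both genotypes, 86.9% had a larger coefficient of variation in HrasG12V, so the wider spread is not particular to the 9 genes. Mouse 2276 lay below every WT mouse for 3 genes (*Opa1*, *Dnm1l* and *Fundc1*) and above every WT mouse for 4 others (*Fis1*, *Mff*, *Pink1* and *Oma1*). Mouse 2278 lay below every WT mouse for 7 of the 9 genes and mouse 2279 for 8, and mouse 2279 lay above every WT mouse for *Pink1*. These counts have to be read against all genes tested, of which 38% lay below and 43.1% above every WT mouse in mouse 2276, 44.9% below and 31.7% above in mouse 2278, and 41.6% below and 33.7% above in mouse 2279.

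**Figure D1:**
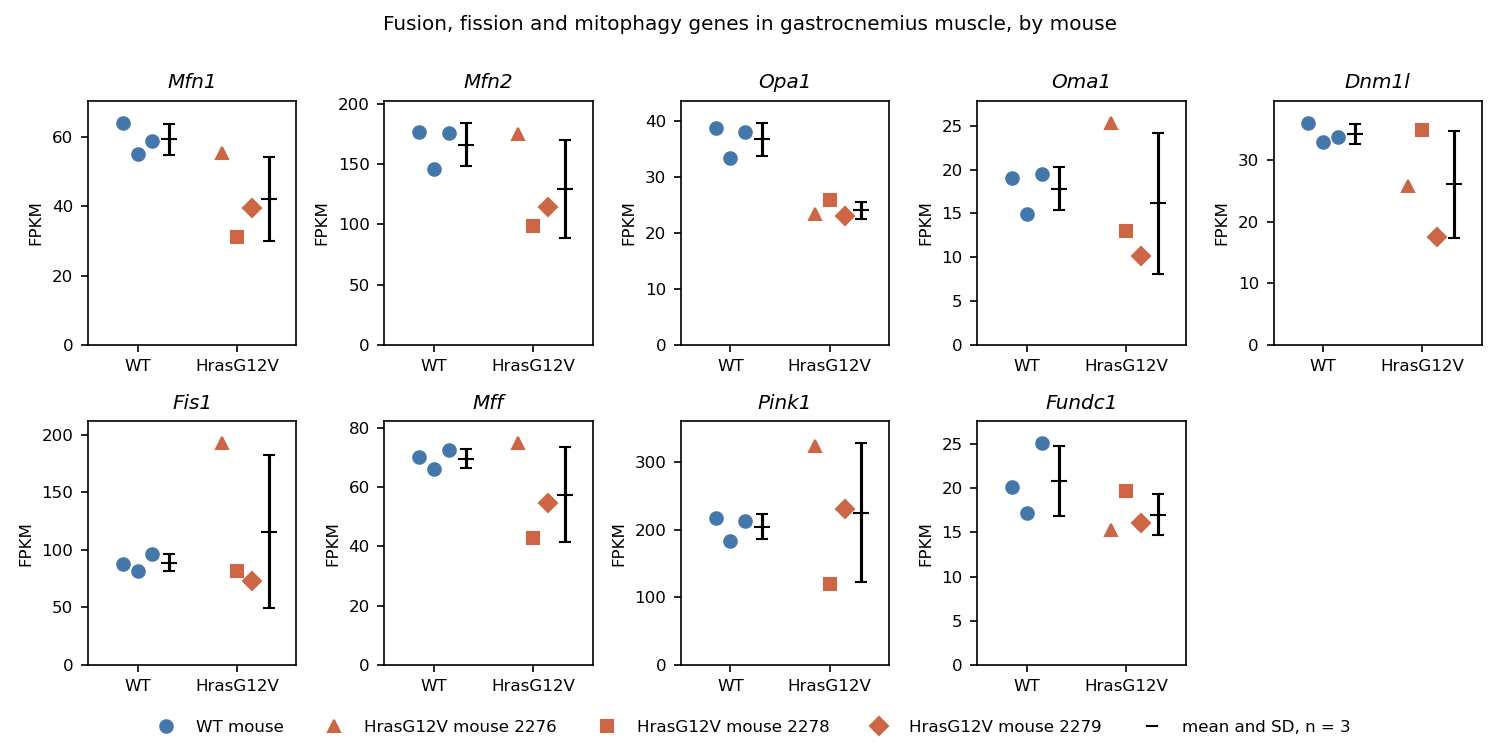
FPKM of the 9 genes in each mouse (circles WT, other symbols the 3 HrasG12V mice, black marks the mean and SD, n = 3 per genotype). The HrasG12V values of *Opa1* sit between 23.0 and 25.8 FPKM, below the WT values of 33.4 to 38.7, while in every other panel the genotypes overlap.

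The promoters were read for the genes that the results turn on. RefSeq (GRCm38.p6) gave a start site for all 9 genes, the one nearest the GENCODE start was taken where it gave several, and the 250 bases before it were searched on both strands for 5 motifs: AAGGTCA, the core site of the estrogen-related receptors, GCATGCG, the core of the NRF1 site, CCGGAAG, an ETS core such as GABP binds, TGACG, a CREB core, and CACGTG, an E-box. These are sites of factors known to act on mitochondrial genes. *Opa1* is shown because its genotypes did not overlap, and *Mfn1*, *Mfn2*, *Mff*, *Fis1* and *Oma1* because all of them were lower than in every WT mouse in mice 2278 and 2279. The sequences run 5′ to 3′ to the base before the start site, and capitals mark the motifs found.
Opa1: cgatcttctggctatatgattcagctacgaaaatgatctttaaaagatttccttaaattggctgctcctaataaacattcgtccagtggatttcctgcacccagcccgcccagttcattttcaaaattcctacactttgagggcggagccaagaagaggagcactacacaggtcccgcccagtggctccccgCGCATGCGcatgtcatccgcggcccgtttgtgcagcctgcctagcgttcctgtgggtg
Mfn1: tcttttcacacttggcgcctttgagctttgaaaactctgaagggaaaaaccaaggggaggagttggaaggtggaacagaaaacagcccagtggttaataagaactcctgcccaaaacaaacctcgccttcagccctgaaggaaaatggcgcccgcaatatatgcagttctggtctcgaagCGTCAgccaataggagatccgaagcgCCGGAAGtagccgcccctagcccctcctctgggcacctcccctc
Mfn2: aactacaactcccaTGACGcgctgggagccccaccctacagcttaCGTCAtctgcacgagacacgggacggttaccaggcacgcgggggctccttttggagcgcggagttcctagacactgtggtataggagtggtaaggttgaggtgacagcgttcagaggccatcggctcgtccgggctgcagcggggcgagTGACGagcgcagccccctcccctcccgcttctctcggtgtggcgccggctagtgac
Mff: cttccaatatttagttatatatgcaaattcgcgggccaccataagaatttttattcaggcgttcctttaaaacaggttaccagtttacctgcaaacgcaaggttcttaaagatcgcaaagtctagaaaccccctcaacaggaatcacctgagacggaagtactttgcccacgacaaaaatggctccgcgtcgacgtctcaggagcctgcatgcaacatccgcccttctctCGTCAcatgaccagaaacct
Fis1: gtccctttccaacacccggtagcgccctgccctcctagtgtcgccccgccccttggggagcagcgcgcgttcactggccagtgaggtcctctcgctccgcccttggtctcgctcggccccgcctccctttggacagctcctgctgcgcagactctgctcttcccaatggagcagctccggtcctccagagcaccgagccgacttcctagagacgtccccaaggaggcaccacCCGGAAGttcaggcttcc
Oma1: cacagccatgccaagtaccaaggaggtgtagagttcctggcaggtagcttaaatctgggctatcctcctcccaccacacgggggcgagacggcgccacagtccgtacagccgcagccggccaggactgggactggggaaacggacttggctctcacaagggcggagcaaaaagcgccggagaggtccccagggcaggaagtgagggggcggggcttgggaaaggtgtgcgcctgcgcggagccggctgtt
They lie at chr16:29579084-29579333 (plus strand), chr3:32529232-32529481 (plus), chr4:147904699-147904948 (minus), chr1:82724640-82724889 (plus), chr5:136953025-136953274 (plus) and chr4:103313596-103313845 (plus). *Opa1* held GCATGCG from position -57 on its own strand, in a palindrome that also gives the match on the other strand from -58, and 3.02% of 32851 RefSeq windows of this length hold this core. *Mfn1* held the ETS core at -44 (6.91% of windows), as did *Fis1* at -18. The CREB core, found in 17.8% of windows, stood in *Mfn1* at -70, in *Mfn2* at -236, -205 and -56, and in *Mff* at -20. *Oma1* held none of the 5. The estrogen-related receptor core (4.08% of windows) and the E-box (6.02%) were in none of the 9 windows. Matches of these letters are a description and carry no measure of binding.

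*Opa1*, the GTPase of inner membrane fusion and the gene with the NRF1 core before its start, was the only 1 of the 9 whose genotypes did not overlap. Its FPKM was 38.7, 33.4 and 38.1 in WT mice 2277, 2280 and 2281 and 23.4, 25.8 and 23.0 in HrasG12V mice 2276, 2278 and 2279. Every HrasG12V mouse lay below every WT mouse, as in 10.4% of all genes tested. The mean was 24.1 ± 1.53 FPKM (SD, n = 3) in HrasG12V and 36.7 ± 2.91 (SD, n = 3) in WT muscle, 65.6% of the WT mean. The log2 fold change was -0.61 (standard error 0.16, 95% confidence interval -0.99 to -0.22), with an unadjusted limma p of 0.00785 and a limma adjusted p of 0.382. An exact two-sided permutation test gave p = 0.1, the smallest that 3 against 3 mice allow. The part of the lower muscle markers *Ttn* (-0.46), *Neb* and *Cacna1s*, whose genotypes did not overlap either, in the lower *Opa1* level was not tested. *Opa1* lies at chr16:29579334-29654884 on the plus strand of GRCm38.

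The *Opa1* difference was computed again without mouse 2276 and with the length trend removed. Without mouse 2276 the log2 fold change was -0.59 (limma adjusted p = 0.0451), and with any 1 mouse left out it was between -0.67 and -0.57 with an unadjusted limma p of 0.00389 to 0.0333. *Opa1* has the longest transcript of the 9 genes (6230 bases). In mouse 2276 it was 0.64 below the WT mean on the log2 scale, and the median of 1953 genes of 0.8 to 1.25 times its length was also low there, at -0.46. In mice 2278 and 2279 it was 0.50 and 0.67 below the WT mean, with like-length medians of -0.07 and 0.01. Against genes of like length, the *Opa1* differences were 0.08, -0.12 and 0.04 in the WT mice and -0.18, -0.44 and -0.67 in HrasG12V mice 2276, 2278 and 2279, so the genotypes still did not overlap. With each library's length trend removed, a step added after the data were seen, the log2 fold change was smaller at -0.42 (95% confidence interval -0.83 to -0.01, unadjusted limma p of 0.0476, limma adjusted p = 0.446), where 4.66% of all genes tested were lower with an unadjusted p below 0.05. Rescaling every library to the same total left the value at -0.62 but its unadjusted limma p was then 0.0799.

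**Figure D2:**
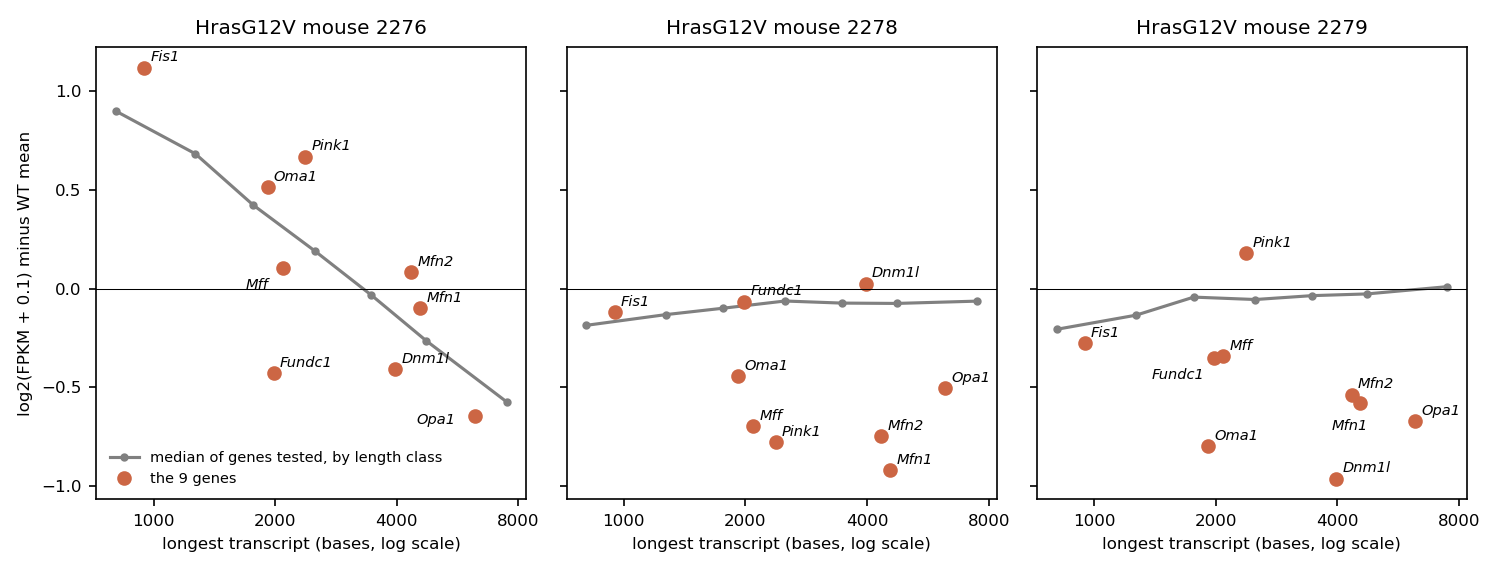
Difference of each of the 9 genes from its WT mean (log2(FPKM + 0.1), vertical axis) against the length of its longest transcript (bases, log scale), in each HrasG12V mouse. The grey line is the median of genes tested by length class, from 500 bases up. The class below 500 bases, with a median of 0, is not drawn. In mouse 2276 the line falls from 0.90 to -0.57 with length and *Fis1* and *Opa1* lie at its 2 ends, while in mice 2278 and 2279 the line is nearly flat and *Opa1*, *Mfn1* and *Mfn2* lie below it.

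The mitofusins, which join the outer membranes, were low in 2 of the 3 HrasG12V mice. *Mfn1* (chr3:32529465-32579239, plus strand) was at 64.1, 55.1 and 59.0 FPKM in the WT mice 2277, 2280 and 2281 and at 55.4, 31.3 and 39.7 FPKM in HrasG12V mice 2276, 2278 and 2279. Mice 2278 and 2279 lay below all WT mice and mouse 2276 lay within the WT range. This gave a log2 fold change of -0.53 (standard error 0.25, 95% confidence interval -1.13 to 0.06), with a limma adjusted p of 0.537. *Mfn2* (chr4:147873599-147904704, minus strand), which also tethers mitochondria to the endoplasmic reticulum, was at 177, 146 and 176 FPKM in WT and at 176, 98.6 and 114 FPKM in HrasG12V mice in the same order. The pattern over mice was that of *Mfn1*, and the log2 fold change was -0.40 (standard error 0.28, 95% confidence interval -1.08 to 0.27, limma adjusted p = 0.679). The ratio of *Mfn2* to *Mfn1* within a mouse moved little, at 2.65 to 2.99 in WT and 2.88 to 3.17 in HrasG12V muscle (exact two-sided permutation p = 0.2).

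Without mouse 2276 both mitofusins passed the unadjusted limit. *Mfn1* fell by 0.75 on the log2 scale (standard error 0.14, limma adjusted p = 0.0415), and the value for *Mfn2* was -0.64 (standard error 0.14, unadjusted limma p of 0.00612, limma adjusted p = 0.0552). Without mouse 2278 the values were -0.34 for *Mfn1* and -0.23 for *Mfn2* (unadjusted limma p of 0.164 and 0.434). In the 5 mice without mouse 2276 5 of the 9 genes were lower with an unadjusted limma p below 0.05, where 17.4% of all genes tested were: *Mfn1*, *Mfn2*, *Opa1*, *Mff* and *Oma1*. *Mfn1* and *Opa1*, 2 of 9, had a limma adjusted p below 0.05, against 4.3% of all genes that were lower at this limit. The remaining HrasG12V mice are the 2 with the B and T cell markers and the higher adipocyte markers, and the part of these cells in the lower mitofusin levels was not tested, nor was that of the skeletal muscle markers, whose median was -0.42 in these 5 mice. With all 6 mice and the length trend removed, *Mfn1* was at -0.41 and *Mfn2* at -0.29, with unadjusted limma p of 0.173 and 0.333.

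*Oma1*, the inner membrane protease that cuts OPA1 under stress (chr4:103313812-103371868, plus strand), was the most variable of the fusion genes. It was at 19.0, 15.0 and 19.5 FPKM in the WT mice 2277, 2280 and 2281 and at 25.3, 13.0 and 10.2 FPKM in HrasG12V mice 2276, 2278 and 2279. Mouse 2276 lay above and the other HrasG12V mice below all WT mice. With all mice the fold change was -0.24 on the log2 scale (standard error 0.35, limma adjusted p = 0.860), and it was -0.62 without mouse 2276 (unadjusted limma p of 0.0170) and 0.034 when mouse 2279 was left out. The ratio of *Opa1* to *Oma1*, substrate to protease, was 1.95 to 2.23 in WT muscle. Mice 2278 and 2279 had ratios of 1.99 and 2.27, and mouse 2276 one of 0.925 (exact two-sided permutation p = 0.7 over all mice). In mouse 2276, genes of the length of *Opa1* had a median difference from WT of -0.46 on the log2 scale and genes of the length of *Oma1* (1915 bases) one of 0.35, and the part of this length trend in the ratio was not tested.

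**Figure D3:**
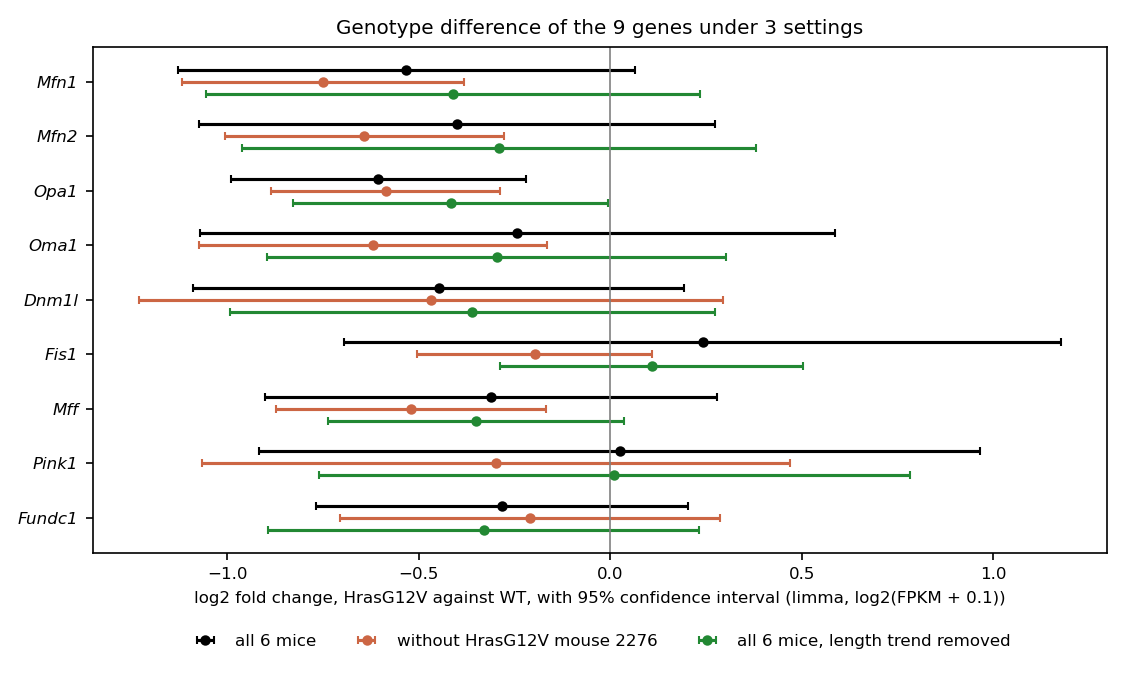
Log2 fold change of each gene, HrasG12V against WT (horizontal axis, points), with 95% confidence intervals from limma, for all 6 mice, without mouse 2276, and for all 6 mice with the length trend removed. The interval of *Opa1* stays below 0 in all 3 settings, those of *Mfn1*, *Mfn2*, *Oma1* and *Mff* do so only without mouse 2276, and those of the other 4 genes include 0 throughout.

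The fission genes did not share 1 pattern. *Dnm1l*, the GTPase that constricts and divides the mitochondrion (chr16:16312230-16358959, minus strand), was at 36.0, 33.0 and 33.8 FPKM in the WT mice 2277, 2280 and 2281 and at 25.8, 34.8 and 17.5 FPKM in HrasG12V mice 2276, 2278 and 2279. Mouse 2278 lay within the WT range and the other HrasG12V mice lay below it, a different pair of mice from that with low mitofusins. Between genotypes the log2 difference was -0.45 (standard error 0.27, 95% confidence interval -1.09 to 0.19, limma adjusted p = 0.624), while it was -0.68 without mouse 2278 (unadjusted limma p of 0.0231) and -0.19 without mouse 2279 (unadjusted limma p of 0.347).

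*Mff*, the adaptor that recruits DRP1 (chr1:82724890-82752394, plus strand), was low in the same 2 mice as the mitofusins. It was at 70.0, 66.1 and 72.4 FPKM in WT and at 74.7, 42.8 and 54.7 FPKM in HrasG12V mice 2276, 2278 and 2279, with the last 2 below all WT mice and mouse 2276 above them. Its log2 difference between genotypes was -0.31 (standard error 0.25, limma adjusted p = 0.717), while it was -0.52 without mouse 2276 (unadjusted limma p of 0.0127) and -0.12 without mouse 2278 (unadjusted limma p of 0.574). *Fis1*, a small outer membrane protein of fission and mitophagy (chr5:136953275-136966234, plus strand), was at 88.1, 81.8 and 96.7 FPKM in WT and at 193, 81.7 and 73.1 FPKM in HrasG12V mice in the same order. The high mean of HrasG12V muscle, 116 ± 66.7 FPKM (SD, n = 3), came from mouse 2276, while mouse 2278 lay just below the lowest WT mouse and mouse 2279 further below.

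For *Fis1* the direction depended on that library. Fitted over all mice it was 0.24 on the log2 scale (standard error 0.39, 95% confidence interval -0.69 to 1.18, limma adjusted p = 0.882), and it was -0.20 without mouse 2276. *Fis1* has the shortest transcript of the 9 genes (948 bases), and in mouse 2276 it was 1.12 above the WT mean on the log2 scale where 831 genes of like length had a median of 0.83. With the length trend removed, its log2 fold change was 0.11 (95% confidence interval -0.29 to 0.50). The ratio of *Mff* to *Fis1* was 0.749 to 0.808 in WT and 0.388, 0.524 and 0.749 in HrasG12V mice 2276, 2278 and 2279. The groups met at 0.749 to 3 digits, and the exact two-sided permutation p was 0.1, the smallest possible. The ratio of *Opa1* to *Dnm1l* was 1.01 to 1.13 in WT and 0.742 to 1.31 in HrasG12V mice (exact two-sided permutation p = 0.6).

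The summed FPKM of *Mfn1*, *Mfn2* and *Opa1* over that of *Dnm1l*, *Fis1* and *Mff* was 1.44, 1.30 and 1.35 in WT mice 2277, 2280 and 2281 and 0.868, 0.977 and 1.22 in HrasG12V mice 2276, 2278 and 2279. The HrasG12V mice were all below the WT mice. *Mfn2* made up 62.2% to 69.0% of the fusion sum over the 6 mice. *Fis1* made up 45.2% to 47.6% of the fission sum in WT mice and 65.7%, 51.2% and 50.3% in HrasG12V mice 2276, 2278 and 2279, and in mouse 2276 these sums set genes of different length side by side where the values moved with length. On the log2 scale the ratio differed by -0.43 between genotypes, and by -0.56 to -0.32 with any 1 mouse left out. The choice of the genes in the sums was made with their values known, so no test is given.

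**Figure D4:**
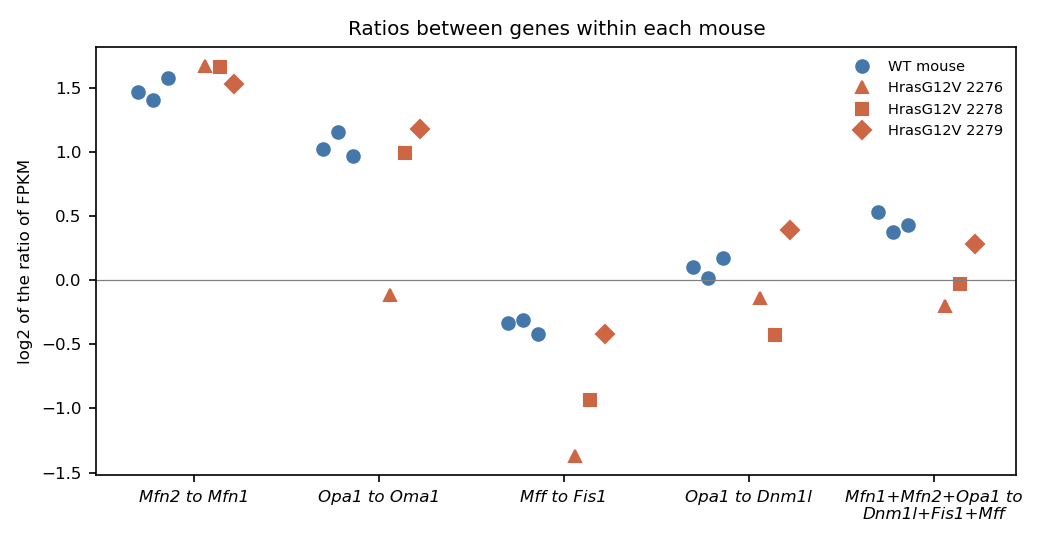
Log2 of the ratio of FPKM between genes within each mouse (circles WT, other symbols the 3 HrasG12V mice). The ratio of *Mfn2* to *Mfn1* stays between 1.40 and 1.67 in all 6 mice, the ratio of *Opa1* to *Oma1* is low in mouse 2276 alone, the library whose values move with transcript length, and the ratio of fusion to fission sums is lower in the 3 HrasG12V mice than in the 3 WT mice.

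The mitophagy genes did not differ between genotypes beyond the spread. *Pink1*, the kinase that builds up on damaged mitochondria (chr4:138313409-138326307, minus strand), was at 217, 184 and 213 FPKM in the WT mice 2277, 2280 and 2281 and at 324, 119 and 231 FPKM in HrasG12V mice 2276, 2278 and 2279. Mouse 2276 was the highest of the 6 mice and mouse 2278 the lowest. The log2 fold change was 0.02 (standard error 0.39, 95% confidence interval -0.92 to 0.97, limma adjusted p = 0.992), an interval that covers nearly a doubling and nearly a halving, and the sign turned without mouse 2276 (-0.30), without mouse 2279 (-0.05) and without WT mouse 2280 (-0.05). In mouse 2276, *Pink1* was 0.67 above the WT mean on the log2 scale and genes of like length had a median of 0.21.

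*Fundc1*, a mitophagy receptor of the outer membrane that responds to low oxygen (chrX:17556564-17572325, minus strand), was at 20.1, 17.2 and 25.1 FPKM in WT and at 15.2, 19.6 and 16.1 FPKM in HrasG12V mice 2276, 2278 and 2279. Mice 2276 and 2279 lay below the WT range and mouse 2278 within it. The fitted log2 difference was -0.28 (standard error 0.20, 95% confidence interval -0.77 to 0.20, limma adjusted p = 0.685), and between -0.41 and -0.14 with any 1 mouse left out. *Fundc1* stood apart from genes of its length in mouse 2276, at -0.43 where their median was 0.34.

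The genes around these 9 were taken from lists of the same machinery. Of 21 tested genes of fusion and cristae upkeep, the 4 fusion genes above among them, 2 were lower with an unadjusted limma p below 0.05 and 0 higher, with a median log2 fold change of -0.24, where 4.99% and 5.18% of all genes tested were lower and higher. That median was -0.42 without mouse 2276, -0.10 without mouse 2278 and -0.001 without mouse 2279, and without mouse 2276 the count was 16, with 6 at a limma adjusted p below 0.05, where 17.4% and 4.3% of all genes tested were lower at these limits. The second beside *Opa1* was *Slc25a46*, an outer membrane protein that acts with the mitofusins and OPA1. It was at 25.1, 23.5 and 24.9 FPKM in WT and at 16.6, 18.8 and 18.1 FPKM in HrasG12V mice 2276, 2278 and 2279. Every HrasG12V value was below every WT value, as for 10.4% of all genes tested (log2 fold change -0.46, standard error 0.15, unadjusted limma p of 0.0189, limma adjusted p = 0.435). *Chchd6*, a subunit of the MICOS complex that shapes cristae, was the highest of the list at 0.45 (limma adjusted p = 0.581).

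Of 18 fission genes tested, 2 were lower with an unadjusted limma p below 0.05 and 0 higher, with a median log2 fold change of -0.29 (-0.19 without mouse 2278), against the same shares of all genes. Without mouse 2276 the count was 8, with 4 at a limma adjusted p below 0.05, where 17.4% and 4.3% of all genes tested were lower. *Gdap1*, an outer membrane protein that promotes fission and is mutated in a hereditary neuropathy, was at 2.31, 2.28 and 3.51 FPKM in WT and at 0.836, 1.20 and 0.949 FPKM in HrasG12V mice 2276, 2278 and 2279. Its log2 fold change of -1.34 (standard error 0.25, 95% confidence interval -1.95 to -0.74) was the largest of the list, with an unadjusted limma p of 0.00133 and a limma adjusted p of 0.288. At this low level it depended on the pseudocount, and with 1 in place of 0.1 it was -0.88. *Mtfr1*, a fission regulator, was at 17.9, 15.4 and 17.4 FPKM in WT and at 12.1, 10.9 and 8.66 FPKM in HrasG12V mice (log2 fold change -0.68, standard error 0.18, unadjusted limma p of 0.00715, limma adjusted p = 0.382). Neither gene overlapped between genotypes, and 10.4% of all genes tested were likewise lower in every HrasG12V mouse than in every WT mouse. *Dnm2*, a dynamin that acts in endocytosis, was the highest at 0.30 (limma adjusted p = 0.625).

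Of 25 mitophagy genes 1 was lower with an unadjusted limma p below 0.05 and 0 were higher, where 4.99% of all genes were lower, with a median of -0.05 (-0.23 without mouse 2276 and 0.051 without mouse 2278). Without mouse 2276 it was 8 of 25, where 17.4% of all genes were lower. With all mice the 1 gene was *Usp15*, a deubiquitinase that opposes mitophagy, at 55.2 to 59.2 FPKM in WT and 40.3 to 45.0 FPKM in HrasG12V mice (log2 fold change -0.43, unadjusted limma p of 0.0370, limma adjusted p = 0.481). The autophagy kinase gene *Ulk1* was the lowest at -0.50 (limma adjusted p = 0.614) and *Fkbp8*, a mitophagy receptor, the highest at 0.20 (limma adjusted p = 0.875). Among 6 genes of mitochondrial transport along microtubules 1 was lower with an unadjusted limma p below 0.05 with all mice and 4 without mouse 2276. With all mice this was *Trak2*, a motor adaptor (log2 fold change -0.46, unadjusted limma p of 0.0312, limma adjusted p = 0.476), while the GTPase gene *Rhot2* was the lowest at -0.49 (limma adjusted p = 0.706) and *Fez1* the highest at 0.35 (limma adjusted p = 0.658).

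With the length trend removed, *Slc25a46* (-0.34), *Gdap1* (-1.26) and *Mtfr1* (-0.66) still had an unadjusted limma p below 0.05, of 0.0207, 0.00142 and 0.00382. *Usp15* (-0.18) and *Trak2* (-0.28) did not, with unadjusted limma p of 0.384 and 0.264. In this setting the medians of the fusion, fission, mitophagy and transport lists were -0.25, -0.17, 0.011 and -0.23. Over all 16 other settings *Gdap1* and *Mtfr1* kept an unadjusted p below 0.05, whereas *Slc25a46* kept it in 12, *Usp15* in 10 and *Trak2* in 11. Without WT mouse 2277 the unadjusted limma p was 0.0630 for *Slc25a46*, 0.103 for *Usp15* and 0.0715 for *Trak2*, without WT mouse 2281 it was 0.0520, 0.0742 and 0.0869, and without WT mouse 2280 it was 0.0640 for *Usp15* and 0.0592 for *Trak2*.

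**Figure D5:**
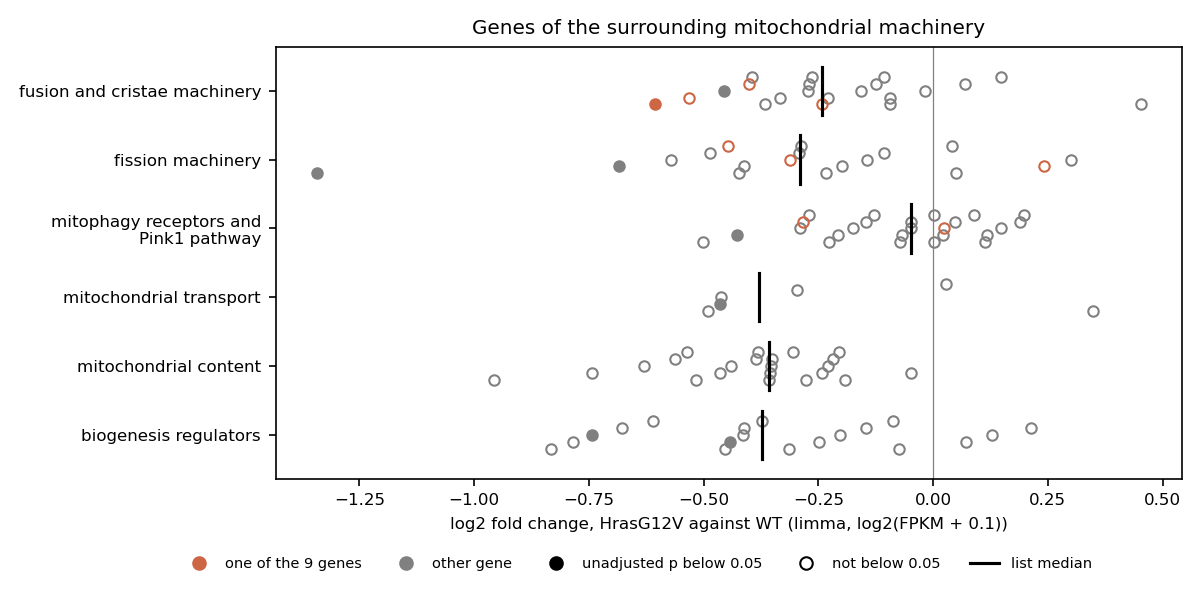
Log2 fold change, HrasG12V against WT (horizontal axis), of every tested gene in 6 lists of mitochondrial genes, with the 9 genes in orange, filled circles for an unadjusted limma p below 0.05 and a black line at each list's median. The list medians lie between -0.38 and -0.05, all filled circles lie left of 0, and *Gdap1* lies farthest left at -1.34.

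Genes of mitochondrial content and biogenesis were set beside the 9 genes. Of 22 content genes (matrix enzymes, channels, import and respiratory chain subunits) 0 had an unadjusted limma p below 0.05. All 22 were lower by their fitted value, where 7129 of all 13359 genes tested were. Their median was -0.36, and it was -0.81 without mouse 2276, -0.16 without mouse 2278 and -0.10 without mouse 2279. They ran from *Ckmt2*, the mitochondrial creatine kinase of muscle, at -0.96 to *Tomm20*, an import receptor, at -0.05 (limma adjusted p = 0.654 and 0.968). Their summed FPKM was 14862 to 16442 in WT mice, 23536 in mouse 2276 and 8452 and 8657 in mice 2278 and 2279. Mouse 2276 was thus the highest and the other HrasG12V mice the lowest, and without mouse 2276 all 22 were lower with an unadjusted limma p below 0.05 and 16 with a limma adjusted p below 0.05, against 17.4% and 4.3% of all genes tested.

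Set against the median content gene in the same mouse, *Opa1* and *Mfn1* stood differently in the 3 HrasG12V libraries. *Opa1* was 1.08 below that median on the log2 scale in mouse 2276 and 0.28 and 0.10 above it in mice 2278 and 2279, with -0.06 to 0.08 in WT mice. *Mfn1* was 0.54 below it in mouse 2276 and at -0.14 and 0.19 in the others. *Fis1* was above it in all 3 HrasG12V mice, by 0.68, 0.66 and 0.50, against -0.09 to 0.15 in WT mice. These differences are not corrected for transcript length, and in mouse 2276 the median gene of like length was itself at -0.46 for *Opa1* and 0.83 for *Fis1* relative to WT. In mice 2278 and 2279 the content genes were low as well, with a median difference from WT of -0.78 and -0.77 on the log2 scale. The part of the content genes in the lower levels of *Opa1* and the mitofusins there was not tested.

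Of 19 regulators of mitochondrial biogenesis, 2 were lower with an unadjusted limma p below 0.05 and 0 higher, against 4.99% and 5.18% of all genes tested, with a median of -0.37. Without mouse 2276 the count was 8, with 3 at a limma adjusted p below 0.05, against 17.4% and 4.3%. *Ppargc1a*, the coactivator PGC-1alpha that drives mitochondrial gene expression in oxidative muscle, was at 9.19, 8.96 and 10.1 FPKM in the WT mice 2277, 2280 and 2281 and at 5.48, 5.22 and 6.05 FPKM in HrasG12V mice 2276, 2278 and 2279. Every HrasG12V mouse, 2276 included, lay below every WT mouse, as in 10.4% of all genes tested. The log2 fold change was -0.74 (standard error 0.14, 95% confidence interval -1.08 to -0.41, unadjusted limma p of 0.00127, limma adjusted p = 0.288). With the length trend removed it was -0.55 (unadjusted limma p of 0.0143). *Tfb2m*, a mitochondrial transcription factor, was at 29.4 to 32.0 FPKM in WT and 19.6 to 24.5 FPKM in HrasG12V mice (log2 fold change -0.44, unadjusted limma p of 0.0336, limma adjusted p = 0.477), a call kept in 11 of 16 other settings. It was lost without WT mouse 2277, 2280 or 2281 and without mouse 2278 (unadjusted limma p of 0.0504 to 0.0895), and on rescaling to the same total (0.145). *Ppara*, a receptor that switches on fatty acid oxidation, was the lowest at -0.83 (limma adjusted p = 0.495) and *Pprc1* the highest at 0.21 (limma adjusted p = 0.681). *Ucp1*, the uncoupling protein of brown fat, was at 5.60, 35.8 and 5.92 FPKM in HrasG12V mice 2276, 2278 and 2279 and at 1.94, 0.662 and 0 in WT mice. It is 1 of the 10 adipocyte markers, and the part of fat cells in its level was not tested.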

How the data were processed

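RNA was measured in 6 gastrocnemius muscles, 1 library per mouse, grouped by the genotype in the sample labels. Stranded mRNA libraries were read from 1 end, TopHat mapped the reads, Cufflinks and Cuffnorm quantified genes, and the submitters' processing notes name GRCm38 and mm10. No tool version or annotation is given in the sources used here. The deposited values are FPKM per gene symbol, which the authors computed with Cuffnorm, and the file headers name no count column. No whole reads could be recovered from the low values, so no count model was used. The study gives an approximate number of reads per sample, but the number of reads behind each value is unknown.

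Genes whose FPKM averaged at least 0.5 were fitted as log2(FPKM + 0.1) in R 4.3.3 with limma 3.58.1 (trended empirical Bayes, no covariate), and p-values were adjusted by Benjamini-Hochberg over 13359 genes. The members and the gene lists were chosen with earlier results of these data known, and 1 of the 10 genes chosen by name is not reported here. Beside the other 9 genes, the text names from each list the genes with an unadjusted p below 0.05 and the highest and lowest fold change, and *Ppargc1a* and *Ucp1* because the study names them. Lists were described by counts and medians without a test. Of the genes tested, 99.3% had a length and a position in GENCODE vM21 (GRCm38), where the longest transcript was used. The length trend was a lowess curve (span 0.3) of each library's differences from the mean of all 6 libraries. The fit was tested on simulated data. Alternatives were 2 other pseudocounts, 2 other filters, 3 other scalings, no moderation, array weights and leaving out each mouse. Tables were made with pandas 2.3.3 and numpy 2.4.6 and figures with matplotlib 3.10.9, in Python 3.11.15.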

Additional observations from a re-analysis of the deposited data

How the results depend on the processing

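*Opa1* was lower with an unadjusted limma p below 0.05 in 15 of 16 other settings. Leaving out mice 1 at a time moved the genes with an unadjusted p below 0.05 between 606 and 3979 (1358 with all mice) and those with an adjusted p below 0.05 between 7 and 1291 (8 with all mice). The 9 genes held 1 to 5 and 0 to 2 of these. The ranges of log2 fold change were -0.75 to -0.34 for *Mfn1*, -0.64 to -0.23 for *Mfn2*, -0.52 to -0.12 for *Mff*, -0.68 to -0.19 for *Dnm1l*, -0.62 to 0.034 for *Oma1*, -0.20 to 0.50 for *Fis1* and -0.30 to 0.42 for *Pink1*, and -0.23 to 0.051 for the mitophagy list's median. Array weights, which lower the weight of libraries that vary most, gave 3042 genes with an unadjusted and 572 with an adjusted p below 0.05 and 4 of the 9 genes with an unadjusted one, with *Mfn1* at -0.75, *Mfn2* at -0.61 and *Mff* at -0.50 (unadjusted limma p of 0.00341, 0.0161 and 0.0154), *Fis1* at -0.10, *Pink1* at -0.30, *Oma1* at -0.52, *Fundc1* at -0.16 and medians of -0.50 for the 9 genes and of -0.41, -0.25 and -0.75 for the fusion, mitophagy and content lists. Rescaling to the same total gave 712 genes and 2 of the 9, *Mfn1* (-0.54) and *Mfn2* (-0.41), with *Opa1* at -0.62 no longer among them. Quantile normalization gave 1693 genes and 3 of the 9, with *Mfn1* at -0.50 and *Mfn2* at -0.37. A pseudocount of 1 gave 5 and no moderation 1 gene with an adjusted p below 0.05. The cause of these shifts was not tested. No paired analysis was made because the sample labels do not say which mice came from the same litter, so litter is not part of the fit. With 3 mice per genotype and values without counts, a difference whose interval includes 0 cannot be told from none, and a p above the threshold does not show that a gene was unchanged.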
